A study of Mus musculus with 9 samples.

Results

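The apical ectodermal ridge is the thickened epithelium along the distal rim of the limb bud. It secretes FGFs, chiefly FGF8 and FGF4, that keep the mesenchyme below it alive and proliferating, and it takes part in a feedback loop in which mesenchymal SHH and the BMP antagonist GREM1 sustain ridge FGF expression. BMP and WNT signals induce the ridge, and DLX, MSX, SP and p63 transcription factors act in its formation and upkeep.

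Ridge cells were taken from single-cell RNA-seq libraries of mouse forelimb buds by a rule on counts. A cell had to hold more than 1000 detected genes, fewer than 200000 UMIs (counted transcript molecules) and less than 10% mitochondrial UMIs. At least 4 of the 7 ectoderm genes Epcam, Krt5, Perp, Cldn6, Cldn7, Sfn and Wnt6 had to be detected, and the UMIs of the mesenchymal gene Prrx1 were not to exceed the sum of these 7 genes. Cells that passed formed the gated ectoderm, and those with at least 3 Fgf8 UMIs were the ridge cells. There were 165 ridge cells among 1214 gated ectoderm cells, 83167 cells past the cell filters and 133086 deposited barcodes.

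The study compared wild-type forelimb buds (Wt) with 2 homozygous enhancer deletions at the Grem1 locus, E1C8Δ/Δ (EC1CRM8Δ/Δ in the labels) and E1C5Δ/Δ (EC1CRM5Δ/Δ), in which the EC1 region is deleted together with CRM8 or CRM5. The mice were on a Swiss Albino background, and both sexes were used. All embryos were collected at E10.75 (37 to 39 somites), and each of the 9 libraries, 3 per genotype, holds the pair of forelimb buds of a different embryo. The cell numbers were uneven. Wt libraries 1 to 3 held 18, 33 and 5 ridge cells, E1C8Δ/Δ libraries 5, 39 and 47, and E1C5Δ/Δ libraries 5, 3 and 10. Tests across genes used the 5 libraries with at least 10 ridge cells (Wt 1 and 2, E1C8Δ/Δ 2 and 3, E1C5Δ/Δ 3), so E1C5Δ/Δ entered them with 1 library, assumed to vary like the others.

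Libraries held between 26620760 and 500559729 UMIs, and ridge cells had median depths of 6052 to 22123 UMIs. Other ectoderm, the 996 gated cells without an Fgf8 UMI, had medians of 11361 to 15839 UMIs. Pairs of libraries shared between 0 and 74 cell barcodes, and no barcode was a ridge cell in more than 1 library. In summed mesenchymal cells Xist exceeded 100 CPM (counts scaled to the total of each summed class) in 0 of 3 Wt and 4 of 6 mutant libraries, so sex and genotype were partly confounded and no gene of either sex chromosome entered a genotype test. Grem1, the target of the deletions, had 3 UMIs in all Wt ridge cells and 4 in all mutant ridge cells. In mesenchymal cells (at least 5 Prrx1 UMIs and at most 1 of the 7 ectoderm genes) it was lower in the mutants by a log2 fold change of -1.08 (SE 0.15, edgeR adjusted p = 0.00845). Taken alone, E1C8Δ/Δ had -1.45 (SE 0.18, edgeR adjusted p = 0.00341), and E1C5Δ/Δ had -0.70 and did not pass (SE 0.17, edgeR adjusted p = 0.0911).

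Few gated cells lay near the Fgf8 threshold. Of the 1214 cells, 996 had no Fgf8 UMI, 44 had 1 and 9 had 2, whereas 33 had 3 to 9, 80 had 10 to 49 and 52 had 50 or more. The 9 cells just below the threshold had a median of 29509 UMIs in total and the 5 cells at 3 Fgf8 UMIs a median of 5242. Bhlha9 was detected in 7 of the 9 and in 0 of the 5, and Krt14 in 6 of the 9 and 0 of the 5. Among mesenchymal cells, between 1.10% and 6.68% per library held an Fgf8 UMI at median depths of 18793 to 49505 UMIs, the background share against which single Fgf8 UMIs can be read.

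**Figure D1:**
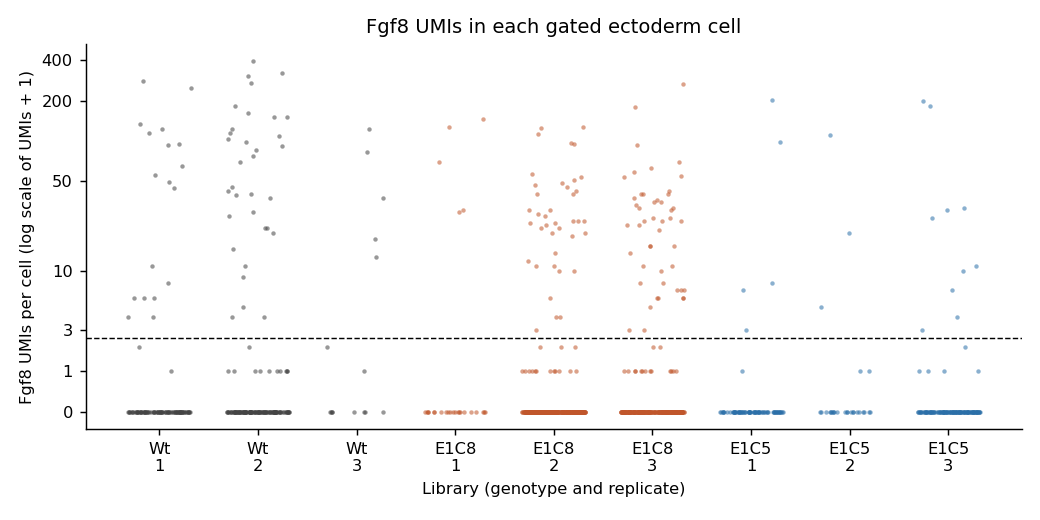
Fgf8 UMIs of every gated ectoderm cell (vertical axis, logarithm of UMIs plus 1) by library, with 1 point per cell and the threshold of 3 UMIs as a dashed line. Few cells lie at 1 or 2 UMIs, and the ridge cells above the line reach 391 Fgf8 UMIs in Wt library 2.

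The markers that define the ridge were checked first. Fgf8, Epcam and Krt5 were used to choose the cells, so their levels are a description. Bhlha9, a basic helix-loop-helix gene of the limb ectoderm and the remaining marker of the label, was not used, and it went the other way. It was at 26.3, 79.1 and 44.0 CPM in ridge cells of Wt libraries 1 to 3, at 0, 11.4 and 28.7 CPM in E1C8Δ/Δ and at 31.3, 0 and 99.5 CPM in E1C5Δ/Δ. In other ectoderm of the same libraries it stood between 79.8 and 162.8 CPM, above the ridge cells in all 9. The difference over the 5 tested libraries was a log2 fold change of -1.47 (SE 0.23, edgeR adjusted p = 0.000166). Bhlha9 was detected in 24.8% of 165 ridge cells and 52.9% of 996 other ectoderm cells. In cells of at least 5000 UMIs, thinned to that depth, the shares were 15.4% of 143 and 33.7% of 829. In mesenchymal cells the share was 0.368% to 1.32% per library. These cells are therefore called ridge cells by their Fgf8 counts and by the ridge genes below, and not by Bhlha9.

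Ridge cells differed widely from the rest of the ectoderm. The counts of ridge cells and of other ectoderm were summed per library and compared by the edgeR quasi-likelihood fit, with the library as a block. Of 10663 genes tested, 638 (5.98%) were higher in ridge cells and 378 (3.54%) lower at a Benjamini-Hochberg adjusted p under 0.05, together 9.53%. Fgf8 and the other 8 genes of the gate were left out. The median log2 fold change of all tested genes was -0.01. When cells of at least 5000 UMIs were thinned to that depth, 386 of 4808 genes tested in 4 libraries were called.

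Among the FGF ligands, which carry the ridge signal to the mesenchyme, 3 of 8 listed genes had enough counts for the test and 2 were higher, Fgf4 and Fgf9. Fgf9 was at 33.4 and 79.1 CPM in ridge cells of Wt libraries 1 and 2, at 22.7 and 21.3 CPM in E1C8Δ/Δ libraries 2 and 3 and at 35.5 CPM in E1C5Δ/Δ library 3, against 1.09 to 3.37 CPM in other ectoderm. All 5 ridge values lay above all 5 others, with a log2 fold change of 3.94 (SE 0.36, adjusted p = 2.46e-07). In Wt library 3, outside the test, neither the 5 ridge cells nor the 8 other ectoderm cells held an Fgf9 UMI. Fgf4 had 104 UMIs in ridge cells of these 5 libraries and 0 in their other ectoderm, at least 221.1-fold higher in ridge cells when the others are set at a floor of 3 counts over the group. Across all 9 libraries it was detected in 24 of 165 ridge cells and in 0 of 996 other ectoderm cells, which allows a share of up to 0.301% of cells with an Fgf4 UMI, a limit on detection and not on expression. Fgf17 averaged 7.64 ± 6.02 CPM (SD, n = 5) in ridge cells and 2.83 CPM in other ectoderm and did not pass the test (log2 fold change 1.45, SE 0.48, adjusted p = 0.0716).

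In the GENCODE annotation of GRCm38, the protein-coding genes Fgf8 and Fgf4 lie at chr19:45736798-45742915 on the minus strand and at chr7:144847367-144865243 on the plus strand, and Bhlha9 at chr11:76672470-76673676 on the plus strand. The promoters of Fgf4 and of the BMP ligand gene Bmp4, described below, are printed as ridge ligand genes that stand higher together. The windows hold the 250 bases before the RefSeq start, on build GRCm38.p6, 5′ to 3′ on the strand of the gene, and capitals mark GGGCGG, the GC box, on either strand. Fgf4 lies at chr7:144861136-144861385 on the plus strand with 2 GC boxes, inside the GENCODE gene, which starts further upstream, and Bmp4 at chr14:46390670-46390919 on the minus strand with 1.
Fgf4: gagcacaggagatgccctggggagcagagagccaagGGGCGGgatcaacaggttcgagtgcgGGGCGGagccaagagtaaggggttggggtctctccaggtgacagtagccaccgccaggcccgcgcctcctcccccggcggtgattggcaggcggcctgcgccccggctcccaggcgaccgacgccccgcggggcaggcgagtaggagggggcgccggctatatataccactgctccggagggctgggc
Bmp4: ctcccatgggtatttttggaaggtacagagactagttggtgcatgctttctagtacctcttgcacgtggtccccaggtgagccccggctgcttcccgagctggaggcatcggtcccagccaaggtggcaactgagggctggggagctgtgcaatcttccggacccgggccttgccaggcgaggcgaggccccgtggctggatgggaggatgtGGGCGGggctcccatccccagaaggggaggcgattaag
The same letters are in 32.7% of 32851 RefSeq promoter windows of this length. They are in neither the Cd44 nor the Vwde window, of genes also higher in ridge cells. TAATTA, the core recognised by many homeodomain proteins, is in none of these genes' windows and in 4.84% of all.

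The ridge transcription factors include genes that act in forming and keeping the ridge. Of 20 genes tested, 11 were higher (Arid3b, Dlx1, Dlx2, Dlx5, Dlx6, En1, Msx1, Msx2, Sp6, Sp8 and Trp63), 3 were lower (Bhlha9, Tfap2a and Tfap2b) and 6 did not pass (Dlx3, Dlx4, Gata3, Sall4, Sp9 and Tfap2c), with a median log2 fold change of 0.62. Dlx5, a distal-less homeobox gene needed with Dlx6 for ridge maintenance, was at 95.4, 69.3 and 154.2 CPM in Wt ridge cells, 164.4, 78.3 and 93.6 CPM in E1C8Δ/Δ and 125.1, 80.6 and 85.3 CPM in E1C5Δ/Δ. In other ectoderm Dlx5 lay between 5.25 and 16.4 CPM, below the ridge cells in every library (log2 fold change 3.79, SE 0.16, adjusted p = 1.10e-11). Dlx6 had a log2 fold change of 4.27 (SE 0.39). The muscle-segment homeobox genes Msx1 and Msx2, targets of BMP signalling, had log2 fold changes of 1.57 (SE 0.13) and 1.81 (SE 0.11). Sp8, a zinc-finger factor required for Fgf8 expression, averaged 138 ± 38.7 CPM (SD, n = 5) in ridge cells against 55.1 CPM (log2 fold change 1.47, SE 0.12). Trp63, encoding the epithelial factor p63, rose less (0.82, SE 0.11, adjusted p = 1.90e-05). Tfap2b, an AP-2 factor, fell from 156 CPM in other ectoderm to 13.6 ± 4.01 CPM (SD, n = 5) in ridge cells (log2 fold change -3.41, SE 0.15, adjusted p = 1.76e-11).

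BMP ligands were higher in ridge cells. Of 10 BMP ligands and receptors tested, the 4 ligands Bmp2, Bmp4, Bmp5 and Bmp7 rose and the 6 receptors Acvr1, Acvr2a, Acvr2b, Bmpr1a, Bmpr1b and Bmpr2 did not pass (median log2 fold change 0.21). Bmp4 was at 389, 382.6 and 539.6 CPM in ridge cells of Wt libraries 1 to 3, at 415.8, 224.9 and 259.4 CPM in E1C8Δ/Δ and at 375.2, 241.9 and 302 CPM in E1C5Δ/Δ. Other ectoderm held 10.6 to 39.5 CPM of Bmp4, so ridge cells and other ectoderm did not overlap (log2 fold change 3.37, SE 0.16, adjusted p = 5.15e-11). In mesenchymal cells Bmp4 was detected in 56.7% to 68.2% of cells per library, so it was not particular to ridge cells. Bmp2 averaged 36.4 ± 14.2 CPM (SD, n = 5) in ridge cells against 5.12 CPM (3.07, SE 0.32). Of 10 BMP target and feedback genes, 4 rose (Bambi, Msx1, Msx2 and Smad7) and 6 did not pass, Id1 to Id4 among them (median 0.31). Bambi, a decoy receptor that dampens BMP signals, stood at 800 ± 241 CPM (SD, n = 5) against 60.8 CPM (3.76, SE 0.16, adjusted p = 7.09e-12).

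WNT ligands divided by direction. Of 14 ligands and R-spondins tested, Rspo2, Wnt10a, Wnt10b and Wnt5a were higher, Wnt3, Wnt4, Wnt7b and Wnt9b lower, and 6 did not pass (median -0.02). Rspo2, a secreted WNT agonist needed for ridge maintenance, was at 85.9, 105.4 and 198.2 CPM in Wt ridge cells, 58.0, 61.9 and 88.2 CPM in E1C8Δ/Δ and 93.8, 201.6 and 95.9 CPM in E1C5Δ/Δ, against at most 7.67 CPM in other ectoderm of any library (4.20, SE 0.25, adjusted p = 7.81e-10). Wnt5a, a non-canonical ligand, averaged 325 ± 77.7 CPM (SD, n = 5) against 91.5 CPM (1.93, SE 0.09, adjusted p = 2.30e-11). Wnt3, the ectodermal canonical ligand needed to form the ridge, averaged 29.1 ± 10.5 CPM (SD, n = 5) against 51.4 CPM (-0.79, SE 0.18, adjusted p = 0.00612). Of 17 WNT target, receptor and feedback genes tested, 11 rose (Axin2, Ctnnb1, Dkk1, Fzd10, Kremen1, Lef1, Nkd1, Notum, Rnf43, Tcf7 and Znrf3), Tcf7l1 fell and 5 did not pass, with a median of 1.00. The extracellular WNT inhibitors Notum (3.05, SE 0.21) and Dkk1 (2.34, SE 0.31) and the transcription factor Tcf7 (2.42, SE 0.14) had the largest log2 fold changes of these 11.

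**Figure D2:**
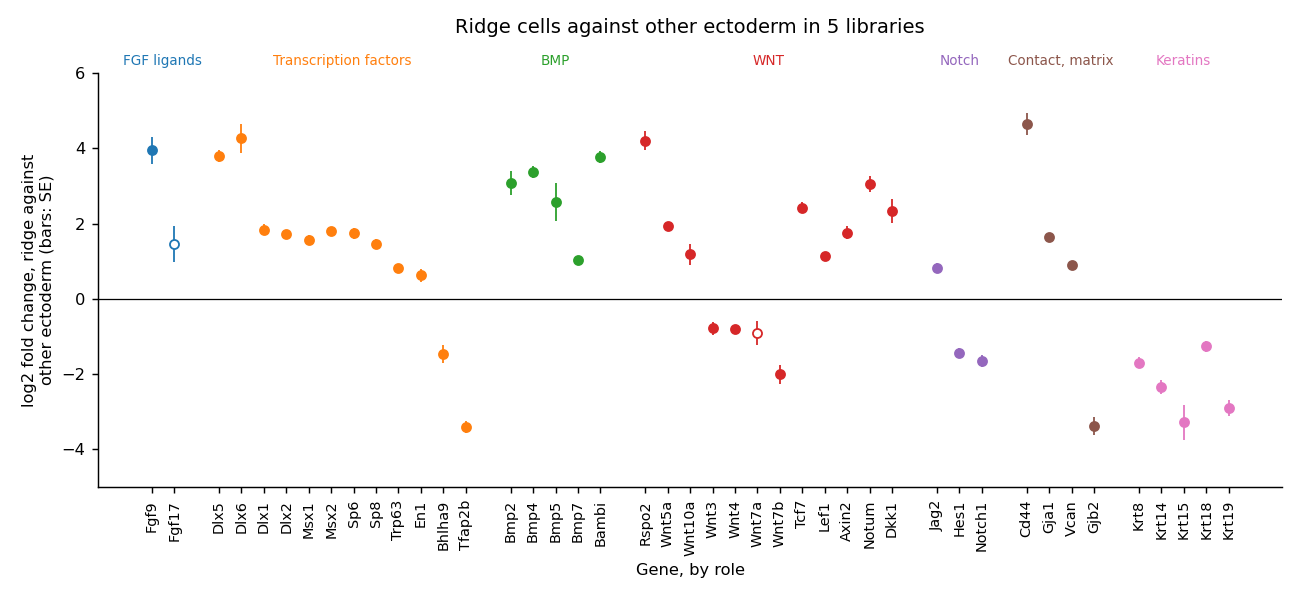
Log2 fold change of ridge cells against other ectoderm (vertical axis, bars are standard errors) for members of the gene lists in 5 libraries, by role. Filled points passed the edgeR test at an adjusted p under 0.05, and open points, Fgf17 and Wnt7a among them, did not. Bmp2, Bmp4 and Bambi lie above 3, and Tfap2b, Gjb2 and Krt15 below -3.

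The Notch list was lower on balance. Of 11 genes tested, Jag2, a Notch ligand known from the ridge, rose (0.82, SE 0.11), whereas Hes1, Heyl, Notch1, Notch3 and Nrarp fell and 5 did not pass, with a median of -0.95. Hes1, a Notch target, averaged 45.7 ± 6.57 CPM (SD, n = 5) in ridge cells and 134 CPM in other ectoderm (-1.43, SE 0.12, adjusted p = 4.37e-08). The receptor Notch1 averaged 35.0 ± 26.4 CPM (SD, n = 5) against 122 CPM (-1.66, SE 0.16).

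Genes that receive FGF signals and answer them were tested as well. Of 15 FGF receptors and feedback genes tested, the feedback inhibitors Spry1 (0.60, SE 0.13) and Spry2 (0.77, SE 0.15) rose, Fgfr3 fell and 12 did not pass, with a median of -0.01. Dusp6, a phosphatase induced by FGF signalling, had a log2 fold change of 0.02 (SE 0.16), and Fgfr2, the epithelial receptor, one of -0.13 (SE 0.15).

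Keratin genes were mostly lower in ridge cells, and several adhesion genes higher. Of 20 genes for cell contact, adhesion and matrix, 7 rose (Cd44, Fras1, Frem1, Gja1, Itga6, Sparc and Vcan), Dsp and Gjb2 fell and 11 did not pass (median 0.28). Cd44, the hyaluronan receptor, was at 50.1 and 42.0 CPM in ridge cells of Wt libraries 1 and 2, at 45.5 and 56.3 CPM in E1C8Δ/Δ libraries 2 and 3 and at 49.7 CPM in E1C5Δ/Δ library 3, against 0.75 to 3.00 CPM in other ectoderm (4.65, SE 0.29, adjusted p = 1.21e-09). The gap junction genes went opposite ways, with Gja1 (connexin 43) at 458 ± 193 CPM (SD, n = 5) against 149 CPM and Gjb2 (connexin 26) at 5.12 ± 4.32 CPM (SD, n = 5) against 61.7 CPM. Of 16 keratin and stratification genes tested, 12 fell, Klf4 rose and 3 did not pass (median -1.90). Krt14, a basal keratin that pairs with KRT5, averaged 18.5 ± 6.62 CPM (SD, n = 5) against 94.6 CPM (-2.34, SE 0.19, adjusted p = 4.68e-08), and Krt8, Krt18 and Krt19, keratins of simple epithelia, had log2 fold changes of -1.69 (SE 0.14), -1.26 (SE 0.15) and -2.89 (SE 0.22).

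The genes with the largest changes, at 20 CPM or more in the higher class and the same direction in every tested library, included Vwde, Smpd3, Igfbpl1, Tent5a, Isl2, Cd44, Dlx6, Slc16a10, Rspo2, Tulp2 and Fgf9 among those higher in ridge cells. Vwde, a secreted von Willebrand factor domain protein, had 102 UMIs in ridge cells of the 5 libraries and 1 in other ectoderm. Tent5a, a poly(A) polymerase, averaged 211 ± 91.7 CPM (SD, n = 5) against 3.80 CPM (5.88, SE 0.13, adjusted p = 2.99e-16). The LIM homeobox gene Isl2 (4.93, SE 0.38) was a transcription factor in this group. Lowest in ridge cells were Pf4, Arg1, Tfap2b, Gjb2, Cldn3, Krt15, Upk1a, Krt17, Sema3d, Krt19, Grhl3 and Sost. Pf4, a chemokine of megakaryocytes and macrophages, was uneven in other ectoderm, from 0 CPM in Wt library 3 to 1075 CPM in Wt library 2 and 1752 CPM in E1C5Δ/Δ library 2, while ridge cells of the 5 tested libraries held 8 UMIs in all. The Pf4 call was lost in DESeq2 (log2 fold change -3.08, adjusted p = 0.209). Grhl3 (-2.78, SE 0.29), a grainyhead factor of the epidermal barrier, Cldn3 (-3.29, SE 0.20), a tight junction claudin, and Upk1a (-3.26, SE 0.25), a uroplakin, were surface epithelium genes in this group.

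Genes of dorsal and of ventral ectoderm were both detected in ridge cells. Of 4 genes tested, En1, which marks ventral ectoderm and ventral ridge, rose (0.63, SE 0.17, adjusted p = 0.0228), Wnt7b fell (-2.00, SE 0.25), and Lmx1b and the dorsal ligand gene Wnt7a did not pass. En1 was detected in 80 of 165 ridge cells (48.5%), Wnt7a in 14 (8.48%) and both in 3. Mesenchymal cells gave 0.852% to 2.82% for En1 and at most 0.679% for Wnt7a.

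Cell cycle and survival genes were listed for the growth and the later regression of the ridge. Of 27 proliferation genes tested, Ccnd1 (0.53, SE 0.11) and the cyclin-dependent kinase inhibitor Cdkn1a (1.29, SE 0.13) rose, Cdkn1c fell (-0.28, SE 0.08) and 24 did not pass, including Mki67 (-0.18, SE 0.12) and Top2a (-0.16, SE 0.10), with a median of -0.11. Of 14 cell death genes, Dkk1 and Trp53inp1 rose and 12 did not pass (median -0.04). Of 6 retinoic acid genes tested, Cyp26b1, which degrades retinoic acid, rose (2.35, SE 0.20), as did the binding protein gene Crabp1 (1.62, SE 0.17), and Cyp26a1 fell (-1.25, SE 0.38). None of 7 hedgehog pathway genes passed, the SHH receptor and target Ptch1 among them (0.04, SE 0.19).

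Markers of other lineages were followed in the same sums. Of 12 mesenchyme markers tested, Col1a2 (1.58) and Pdgfra (2.31) rose and Meis2 fell, with a median of 0.11. Their summed level was 443.5 to 1277 CPM in ridge cells, 561.1 to 1040 CPM in other ectoderm and 1942 to 2309 CPM in mesenchymal cells. Some genes higher in ridge cells were also detected in mesenchymal cells, per library Rspo2 in 17.7% to 26.2%, Bmp2 in 5.46% to 19.4% and Fgf9 in 3.11% to 15.3%. The share there was 25.2% to 47.5% for Msx2 and 3.65% to 12.6% for Dlx5. Sp8 and Trp63 were detected there in at most 1.63% and 1.77%. Of 9 erythroid genes, Alas2, Hba-a2 and Hbb-bt rose, and the summed level was 647.8 to 49728 CPM in ridge cells against 342.7 to 9882 CPM. No endothelial marker of 6 passed. Of muscle progenitor markers Met rose and Pax3 fell, of immune markers Fcer1g fell, and of neural crest and glia markers Erbb3 fell. In ridge cells 4 of 6 muscle progenitor markers, 2 of 7 immune markers and 3 of 5 neural crest and glia markers were detected, with summed levels of 9.54 to 58.0, 0 to 3.79 and 0 to 31.3 CPM over the 9 libraries. The members at 0 in ridge cells of all 9 libraries were Pax7 and Myod1 (muscle), Ptprc, Tyrobp, C1qa, C1qb and Aif1 (immune) and Sox10 and Foxd3 (neural crest), of which Sox10 and Foxd3 were also at 0 in all other ectoderm. Of 9 stress and dissociation genes, Egr1 and Junb rose. A doublet score marked 32 of 165 ridge cells and 234 of 996 other ectoderm cells, and 76 ridge cells held at least 3 markers of 1 other lineage, globins aside. Without the cells marked as doublets, 474 genes were higher in ridge cells and 240 lower, of 8189 tested in 4 libraries. Without the cells of mixed lineage, globins aside, 446 were higher and 235 lower, of 8245 tested in 4 libraries. Beyond these refits, the part of these genes and cells in the ridge differences was not tested.

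Levels were also read along the Fgf8 counts. In cells pooled over the libraries, they were taken at 0, 1, 2, 3 to 9, 10 to 49 and 50 or more Fgf8 UMIs, and the 1 and 2 UMI steps hold 44 and 9 cells. Bmp4 was at 30.4, 52.9, 47.9, 109.9, 233.8 and 432.7 CPM. Dlx5 was at 6.88, 10.4, 3.68, 37.4, 59.1 and 121.9 CPM, and Rspo2 at 4.65, 1.49, 3.68, 44.0, 64.6 and 121.9 CPM. These genes went up at each of the 3 ridge steps but not at each step below the threshold. Fgf4 was at 0 CPM up to 9 Fgf8 UMIs, at 4.13 CPM from 10 to 49 and at 59.6 CPM from 50 on. Msx1 was at 60.3, 89.3, 162.0, 156.1, 125.8 and 193.2 CPM. Sp8 was at 51.3, 76.7, 73.7, 68.1, 96.3 and 178.2 CPM. These were lowest at 0 and highest in the top step, with no steady order between. Bmp7 was at 39.1, 38.7, 73.7, 33.0, 63.3 and 96.1 CPM. Fgf17 was at 2.78, 2.23, 3.68, 11.0, 3.44 and 12.9 CPM. Bhlha9 was at 127.4, 128.8, 81.0, 103.3, 52.3 and 21.5 CPM. Krt14, a keratin of basal epidermis, was at 98.0, 125.8, 173.1, 52.8, 12.4 and 12.9 CPM, so that its highest level was in the step of 9 cells. The steps differ in depth, with median UMIs of 13370, 13156, 29509, 6383, 10655 and 23857, and in genotype, since Wt made up 28 of the 52 cells in the top step and 18 of the 80 below it, so these levels are a description without a test.

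**Figure D3:**
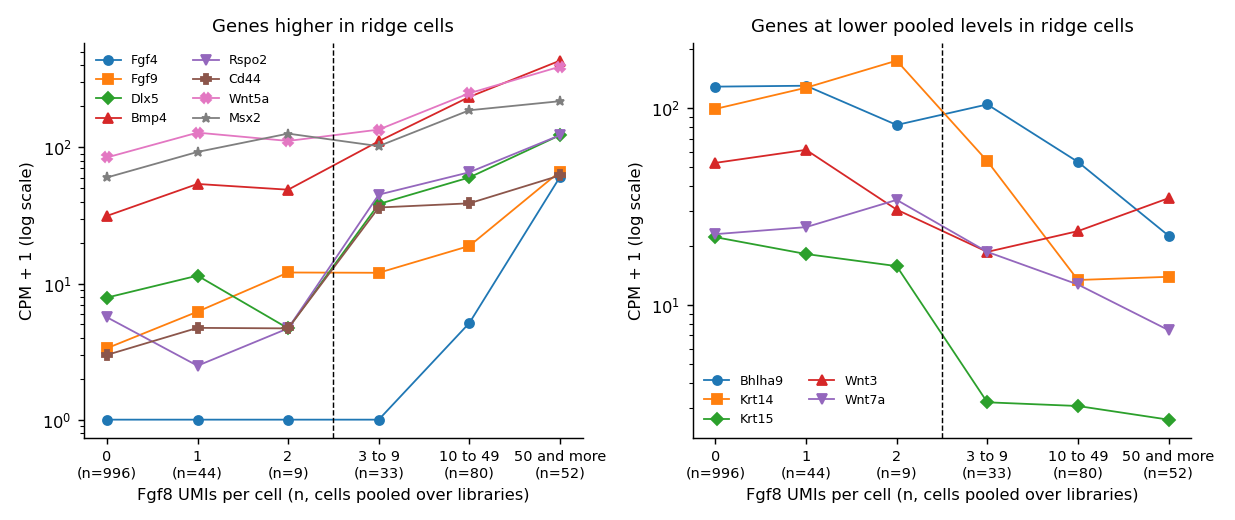
Pooled level of ridge genes (left) and of genes at lower levels in ridge cells (right), as CPM plus 1 on a log axis, over cells grouped by Fgf8 UMIs, with the number of cells below each group and the ridge threshold dashed. On the log axis Dlx5, Rspo2 and Cd44 change most between 2 and 3 to 9 Fgf8 UMIs, from a value near the floor, 3.68 CPM each in 9 cells. In CPM Dlx5 and Rspo2 rise most into the top step. Fgf4 appears only from 10 UMIs on.

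GREM1 is a part of the feedback loop with ridge FGFs, and the comparison of genotypes asks whether ridge cells differ when its enhancers are deleted. Ridge cells made up 16.4%, 20.0% and 33.3% of the gated ectoderm in Wt libraries 1 to 3, 19.2%, 11.0% and 15.6% in E1C8Δ/Δ and 6.10%, 11.1% and 7.46% in E1C5Δ/Δ. The 95% Clopper-Pearson intervals, which cover counting error only, were wide in the small libraries, 11.8% to 61.6% in Wt library 3 with 15 ectoderm cells. Of the 6 mutant libraries, 5 lay below every Wt library and E1C8Δ/Δ library 1 lay among them. The mean was 11.8 ± 4.93% (SD, n = 6) in mutants and 23.2 ± 8.93% (SD, n = 3) in Wt, a difference of -11.5 percentage points (exact permutation test, two-sided p = 0.0238 over 84 assignments). Because Fgf8 counts decide which cells are ridge cells, fewer ridge cells and less Fgf8 per cell cannot be told apart in this share. Taken alone, E1C8Δ/Δ differed from Wt by -7.95 points (exact permutation p = 0.200) and E1C5Δ/Δ by -15.0 points (exact permutation p = 0.10, the smallest that 3 against 3 libraries allow). Without Wt library 3 the difference was -6.43 points with an exact permutation p of 0.107, and in cells of at least 5000 UMIs thinned to that depth, with ridge cells called from 1 Fgf8 UMI, it was -14.2 points with an exact permutation p of 0.0714. Thinning left out 49 Wt, 106 E1C8Δ/Δ and 40 E1C5Δ/Δ cells.

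The share among all cells past the filters gave another picture. It was 0.190%, 0.226% and 0.272% in Wt, 0.436%, 0.332% and 0.298% in E1C8Δ/Δ and 0.0463%, 0.0799% and 0.0711% in E1C5Δ/Δ. All E1C8Δ/Δ libraries lay above and all E1C5Δ/Δ libraries below the Wt range, and the mutants together differed from Wt by -0.0188 points (exact permutation p = 0.881). Gated ectoderm was 0.815% to 1.16% of cells in Wt, 1.92% to 3.00% in E1C8Δ/Δ and 0.719% to 0.952% in E1C5Δ/Δ.

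Fgf8 summed over all gated ectoderm was at 422, 622 and 636 CPM in Wt, at 759, 196 and 236 CPM in E1C8Δ/Δ and at 174, 189 and 118 CPM in E1C5Δ/Δ. In such sums fewer ridge cells and less Fgf8 per ridge cell cannot be told apart. All 3 E1C5Δ/Δ libraries and 2 of 3 E1C8Δ/Δ libraries lay below the Wt range, with a log2 fold change of -1.22 for the mutants (SE 0.33, edgeR adjusted p = 0.514). Of 10896 genes tested over the gated ectoderm, 2 passed (0.0184%), Gm11361 higher and Eif3j2 lower (0.00918% each). Gm11361 had a log2 fold change of 2.10 in E1C8Δ/Δ and 0.39 in E1C5Δ/Δ. Both genes also passed in mesenchymal cells in the same direction (Gm11361 1.35, edgeR adjusted p = 0.0209, and Eif3j2 -2.57, edgeR adjusted p = 0.0215). An exact permutation test on the Fgf8 CPM gave p = 0.119. Without E1C8Δ/Δ library 1 the log2 fold change of Fgf8 was -1.60 (edgeR adjusted p = 0.0165). Within ridge cells, where the threshold removes low values, the median was 33.7, 38.4 and 28.4 Fgf8 UMIs per 10000 in Wt, 36.6, 25.4 and 19.6 in E1C8Δ/Δ and 13.2, 48.1 and 11.2 in E1C5Δ/Δ, so the groups overlapped.

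**Figure D4:**
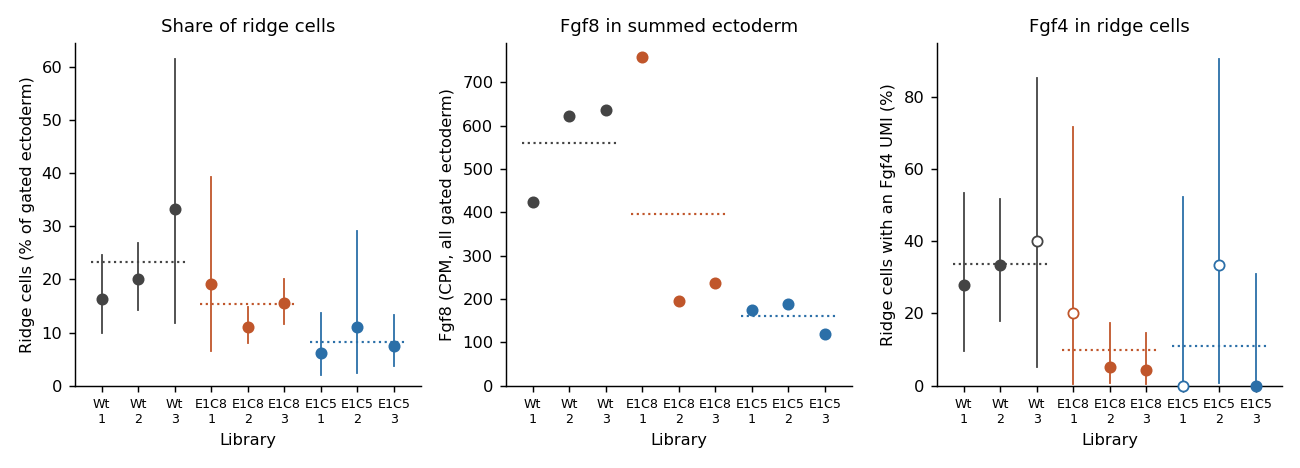
Share of ridge cells in the gated ectoderm (left), Fgf8 in the summed gated ectoderm in CPM (middle) and share of ridge cells with an Fgf4 UMI (right) for each library, with 95% Clopper-Pearson intervals for the shares and dotted group means. In the right panel open points are libraries with fewer than 10 ridge cells, and E1C8 and E1C5 stand for the 2 deletions. E1C8Δ/Δ library 1 lies within or above the Wt values in the first 2 panels.

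Across genes, few passed between genotypes. Of 8555 genes tested in ridge cells, 3 (0.0351%) were higher in the mutants and 9 (0.105%) lower, together 0.140%, with 594 at an unadjusted p under 0.05. The number was 0 without Wt library 2 and 84 without E1C8Δ/Δ library 3. Among these 12, Fgf4 was the only ridge ligand. It was detected in 5 of 18, 11 of 33 and 2 of 5 ridge cells of Wt libraries 1 to 3, in 1 of 5, 2 of 39 and 2 of 47 of E1C8Δ/Δ and in 0 of 5, 1 of 3 and 0 of 10 of E1C5Δ/Δ. The UMIs behind these shares were 15, 85 and 7 in Wt, 4, 2 and 2 in E1C8Δ/Δ and 0, 2 and 0 in E1C5Δ/Δ, so Wt library 2 held most of them. Per library Fgf4 was at 35.8, 83.0 and 77.1 CPM in Wt, 38.7, 2.53 and 2.13 CPM in E1C8Δ/Δ and 0, 80.6 and 0 CPM in E1C5Δ/Δ, so the small libraries E1C8Δ/Δ 1 and E1C5Δ/Δ 2 lay within the Wt range. The 0 of 10 cells allow up to 30% of cells with an Fgf4 UMI, which is again a limit on detection only. Summed over libraries, Fgf4 had 107 UMIs in Wt ridge cells (69.7 CPM), 8 in E1C8Δ/Δ (4.36 CPM, a ratio to Wt of 0.0625 with a 95% counting interval of 0.0263 to 0.128) and 2 in E1C5Δ/Δ (4.97 CPM, a ratio to Wt of 0.0713 with a 95% counting interval of 0.00853 to 0.264). In the libraries with at least 10 ridge cells, E1C8Δ/Δ held 4 Fgf4 UMIs, a ratio to Wt of 0.0333 (0.00891 to 0.0880). In mesenchymal cells Fgf4 was detected in at most 0.0835% of cells of any library.

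In the edgeR test Fgf4 had a log2 fold change of -4.69 in E1C8Δ/Δ (SE 0.56, adjusted p = 0.000363). E1C5Δ/Δ library 3, the library of that genotype in the test, had no Fgf4 UMI, at least 6.50-fold lower than Wt at a floor of 3 counts (adjusted p = 0.104). For both mutants together the fitted log2 fold change was -6.59 (adjusted p = 0.000863), a size that depends on the 0 count in E1C5Δ/Δ. The call was lost without Wt library 2, where the fold change was -5.55 (adjusted p = 0.200). Over all 9 libraries the fold change was -3.71 (adjusted p = 0.00627), and the call was lost with a replicate block (-3.41, adjusted p = 0.0627) or a sex covariate (-3.72, adjusted p = 0.396). Over all 9 libraries the share of ridge cells with Fgf4 differed by -23.3 percentage points (exact permutation p = 0.0595), and after thinning to 5000 UMIs, which left 2 Wt and 2 E1C8Δ/Δ libraries with at least 10 ridge cells, by -27.1 points, where the smallest exact p possible is 0.333.

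The other 8 genes lower in the mutants were the histone genes Hist1h2ap, Hist1h4d, Hist2h2ac, Hist1h1e and Hist1h2ae, the glutathione transferase gene Gstp1, and Gm10076 and Gm10260. In the 5 tested libraries Hist1h2ap was at 546 and 1294 CPM in Wt, 64.4 and 149 CPM in E1C8Δ/Δ and 71.1 CPM in E1C5Δ/Δ (log2 fold change -3.47, SE 0.40, adjusted p = 0.000547). It did not part ridge cells from other ectoderm (-0.01, SE 0.17), where it was at 379, 1168 and 2499 CPM in Wt and 11.7 to 460 CPM in mutant libraries. Wt library 3, outside the test, held 66.1 CPM of Hist1h1e in its 5 ridge cells, below the mutants' 89.3 to 113.7 CPM in the tested libraries.

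The 3 genes higher in the mutants were the globin genes Hba-a1, Hbb-bs and Hbb-bt. Hbb-bs was not called in E1C8Δ/Δ alone, and its tested mutant libraries did not all lie above the tested Wt libraries. Its log2 fold change was 8.59 in E1C5Δ/Δ, from library 3 only. Of 12 alternatives, 5 lost the call for Hba-a1 (log2 fold change 1.84 to 5.80) and 4 for Hbb-bt (3.18 to 8.78). Hba-a1 was at 243 and 157 CPM in tested Wt ridge cells and at 1782, 7124 and 4072 CPM in E1C8Δ/Δ libraries 2 and 3 and E1C5Δ/Δ library 3 (4.43, SE 0.46, adjusted p = 0.000481). The summed erythroid markers of ridge cells were 936 to 1957 CPM in Wt, 648 to 49728 CPM in E1C8Δ/Δ and 1008 to 12659 CPM in E1C5Δ/Δ. The part of this erythroid RNA in the other genotype differences was not tested.

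Other ridge genes were not called in the mutants together. Of 19 ridge transcription factors, 9 BMP ligands and receptors, 10 WNT ligands and 17 WNT targets tested, 0 passed, with median log2 fold changes of 0.08, -0.38, -0.28 and -0.29 beside -0.05 for all genes. Apart from Fgf4 and the 3 globins no member of any list passed. Bmp4 had a log2 fold change of -0.55 (SE 0.18, adjusted p = 0.555), Fgf9 of -1.20 (SE 0.37, adjusted p = 0.407) and Dlx5 of 0.07 (SE 0.25, adjusted p = 0.972).

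In E1C8Δ/Δ alone against Wt, 25 genes (0.292%) were higher and 26 (0.304%) lower, together 0.596%. The 26 include Cldn7 and Sfn, genes of the gate that chose the cells, whose values are a description. Without Wt library 2 the number was 17 and without E1C8Δ/Δ library 3 it was 166, and DESeq2 called 15. Besides Fgf4, the list members were Ptch1 (-1.68, SE 0.28, adjusted p = 0.00779), Cyp26b1 (-1.17, adjusted p = 0.0493), Crabp2, Twist1 and 7 of 8 erythroid genes. Markers of other lineages are given beside these. The 12 mesenchyme markers had a median log2 fold change of 0.69, against 0.0025 over all genes tested, with summed levels of 1277 and 1135 CPM in E1C8Δ/Δ libraries 2 and 3 against 906.8 and 782.8 CPM in Wt libraries 1 and 2, and 1 of them (Twist1) passed. E1C8Δ/Δ library 1, left out of the fit, was at 763.8 CPM. The 6 endothelial markers tested had a median of 6.61, a fitted value that depends on counts at or near 0 in Wt, and none passed. The summed level of all 8 genes of that list was 231.2 and 11.7 CPM in E1C8Δ/Δ libraries 2 and 3 and 0, 2.93 and 33.0 CPM in Wt libraries 1 to 3, so the groups overlapped. Without the cells of mixed lineage, globins aside, 23 genes were higher in E1C8Δ/Δ and 36 lower, of 3657 tested in 4 libraries. Beyond this refit, the part of these markers in the genotype differences was not tested. Ptch1 was at 119, 71.3 and 121 CPM in Wt ridge cells, at 29.0, 29.1 and 25.5 CPM in E1C8Δ/Δ and at 188, 0 and 64.0 CPM in E1C5Δ/Δ, so the E1C8Δ/Δ libraries lay below all Wt libraries and the E1C5Δ/Δ libraries spread around them. Apcdd1, a membrane inhibitor of WNT signalling that was named after its values were seen, was at 90.7, 87.8 and 66.1 CPM in Wt and 67.7, 26.5 and 25.5 CPM in E1C8Δ/Δ (-1.74, SE 0.25, adjusted p = 0.00271). Against E1C5Δ/Δ, the 5 genes called (0.0584%) were the 3 globins, which were higher (0.0351%), and Hist1h2ap and Mecom, which were lower (0.0234%), and rest on 1 library of 10 ridge cells. This number was 0 without either Wt library. Mecom, a zinc-finger gene named after its values were seen, was at 3.55 CPM in that library and between 44.0 and 74.2 CPM in Wt, but at 0 CPM in both E1C8Δ/Δ library 1 and E1C5Δ/Δ library 2.

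**Figure D5:**
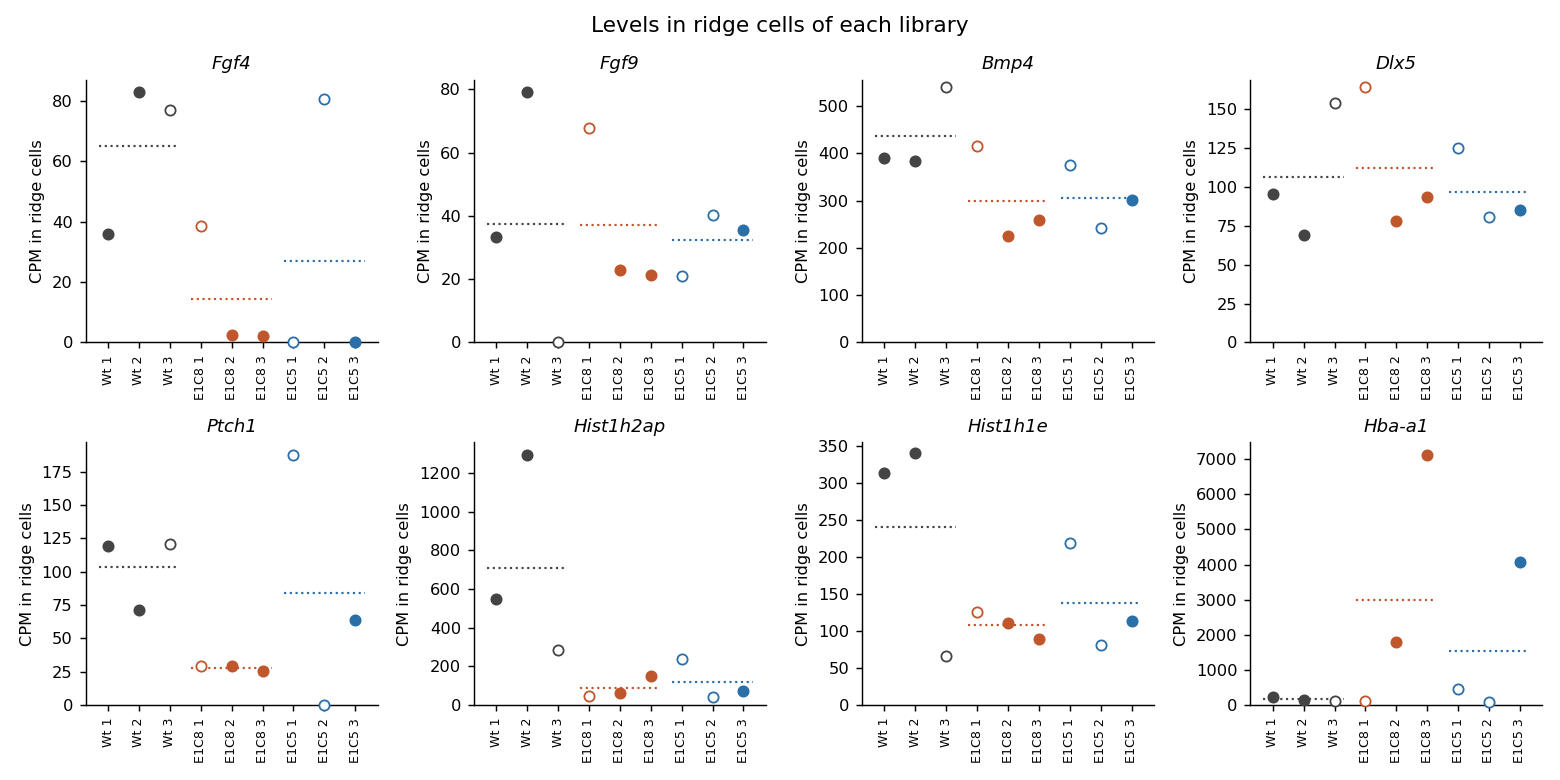
CPM of 8 genes in the ridge cells of each library, with dotted group means; filled points are the 5 libraries with at least 10 ridge cells that entered the test, open points the 4 with 3 to 5 cells. Fgf4 is below 3 CPM in the 3 filled mutant points above 35 CPM in the Wt points and at 80.6 CPM in the open point of E1C5Δ/Δ library 2, and Hba-a1 is highest in those 3 mutant libraries.

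A test of whether the genotype effect differs between ridge cells and other ectoderm called 0 of 10292 genes (0%) in edgeR, with 494 at an unadjusted p under 0.05, and 0 in DESeq2. It called 23 without E1C8Δ/Δ library 2 and 40 without E1C8Δ/Δ library 3. The BMP ligand gene Bmp4 had a log2 difference of -1.18 (SE 0.20, adjusted p = 0.0700). Fgf4 had no UMI in other ectoderm, so the test could not compare its genotype effect between the classes.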

How the data were processed

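Single-cell RNA-seq was made from individual pairs of forelimb buds digested with Collagenase D, with the 10x 3′ kit. The deposited matrices hold UMI counts per gene and cell barcode. Per the labels, the submitters' processing notes name Cell Ranger 6.0.1, Seurat 4.3.0.1 and mm10, and the study's methods describe a filter at 2500 genes and doublet removal by DoubletFinder. No cell annotation was used. Ridge cells, other ectoderm and mesenchymal cells were called by counts of named genes, and a DoubletFinder-like score marked 32 of 165 ridge cells, which were kept. Members and lists were chosen with earlier results of these data known.

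Counts were summed per library and class (at least 10 cells) and tested with edgeR 4.0.16 (TMM, filterByExpr, quasi-likelihood test, Benjamini-Hochberg adjustment) in R 4.3.3. Ridge cells were tested against other ectoderm with library as a block, and genotypes over libraries. Shares were compared by two-sided exact permutation tests, and intervals cover counting error only. The genes named were the 12 of largest change in each direction between the classes (10 between genotypes) among those called with the same direction in every library and at 20 CPM or more in the higher class, beside the list members, and 1 of them is not reported here. Alternatives were DESeq2 1.42.0, no filter on low counts, other Fgf8 thresholds and cell filters, thinning, covariates, the replicate block and leaving out each library. The code was tested on simulated data. Promoter sequences are from RefSeq (GRCm38.p6), whose table did not match Fgf8. Of 83167 cells, 52432 had over 2500 genes.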

Additional observations from a re-analysis of the deposited data

Results flagged for a closer look

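The effects of the 2 deletions against Wt were compared with each other by an edgeR test, which in ridge cells rests on 1 E1C5Δ/Δ library. In ridge cells it called 16 of 8555 genes (0.187%), 7 of them described here, and in the gated ectoderm as a whole 12 of 10896 (0.11%), 1 of them described here. The 16 became 0 at 2 or more Fgf8 UMIs (1013 genes at an unadjusted p under 0.05), 9 by DESeq2, 5 without Wt library 1, 10 without E1C8Δ/Δ library 2 and 104 without E1C8Δ/Δ library 3. The 12 became 64 by DESeq2, 1 with a sex covariate, 1 without E1C8Δ/Δ library 2, 2 without E1C8Δ/Δ library 3, 6 without E1C8Δ/Δ library 1 or Wt library 3, 24 without E1C5Δ/Δ library 1 and 89 without E1C5Δ/Δ library 3. Mecom was higher in E1C8Δ/Δ libraries 2 and 3 than in E1C5Δ/Δ library 3 by 4.58 on the log2 scale. It had no UMI in ridge cells of E1C8Δ/Δ library 1, outside the test. Cyp26b1, which degrades retinoic acid, had a log2 difference of -2.03 (adjusted p = 0.0107), with 41.7 and 60.6 CPM in E1C8Δ/Δ libraries 2 and 3 and 234.5 CPM in E1C5Δ/Δ library 3. The embryonic globin genes Hba-x (7.25, adjusted p = 7.66e-05), Hbb-bh1 (5.83, adjusted p = 0.000281) and Hbb-y (7.48, adjusted p = 9.00e-05) and the globin gene Hba-a2 (2.22, adjusted p = 0.0344) were higher in E1C8Δ/Δ, whereas Hbb-bs had a log2 difference of -6.57 (adjusted p = 0.000130). Pax3, a marker of muscle progenitors, differed by 4.13 over all gated ectoderm (adjusted p = 0.0326).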

How the results depend on the processing

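The lower share of ridge cells in mutant ectoderm kept its direction in all 18 alternatives and its side of the threshold in 6. It was -5.88 points without cells of mixed lineage (globins aside, chosen after seeing the data), -11.2 at 5 or more Fgf8 UMIs and -14.2 after thinning to 5000 UMIs. Thinning to 10000 UMIs also left out Wt library 3, with 8 such cells, and gave -8.07. With that library the means at this depth were 30.4% in Wt and 12.6% in mutants. The share of all cells gave -0.0188, and none of these tests had an exact permutation p under 0.05. Leaving out 1 library gave -14.9 to -6.43. For Fgf4 detection (-27.1 points) the test of 2 against 2 libraries cannot pass 0.05 and says nothing of stability, and leaving out 1 library gave -28.7 to -25.4. Fgf8 in all gated ectoderm passed the test with no filter on low counts (-1.21 for mutants, -1.83 for E1C5Δ/Δ) and lay between -1.60 and -1.04 with 1 library left out (-2.04 to -1.62 for E1C5Δ/Δ, -1.36 to -0.24 for E1C8Δ/Δ). Over all 17 alternatives the range was -1.96 to -1.04 for mutants, -2.57 to -1.62 for E1C5Δ/Δ and -1.39 to -0.24 for E1C8Δ/Δ.

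Settings differed in the genes tested, in ridge cells 8555 in the main fit and 8877 at 2 or more Fgf8 UMIs. With no filter on low counts 15054 were tested, over all 9 libraries 4603, and 5293 with a sex covariate there. Counts of genes called, to be read beside these numbers, moved widely. For mutants, E1C8Δ/Δ and E1C5Δ/Δ against Wt in ridge cells (12, 51 and 5) they were 3, 12 and 1 at 2 or more Fgf8 UMIs, 87, 205 and 40 with no filter on low counts, and 7, 28 and 3 over all 9 libraries. A sex covariate gave 22 for mutants and 14 for E1C5Δ/Δ, and over all 9 libraries 3, 15 and 0. DESeq2 gave 15 and libraries of at least 20 cells 228 for E1C8Δ/Δ. Leaving out 1 library gave 0 to 84, 17 to 166 and 0 to 44. For ridge against other ectoderm (1016 of 10663 genes tested), thinning gave 386 of 4808 in 4 libraries, no library block 629 of 9734 and leaving out 1 library 723 to 895. The test of a differing genotype effect (0) gave 7 in cells over 2500 genes, 5 without doublets, 24 without mixed cells, 2 at 2 or more Fgf8 UMIs, 10 thinned, 3 with other ectoderm of 0 to 2 Fgf8 UMIs, 52 unfiltered, 6 over all libraries with 3 or more ridge cells and 0 to 40 with 1 library left out. The causes were not tested.

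Of 532 values for 30 named genes between ridge cells and other ectoderm, 530 kept direction and call, and 2 for Pf4 lost the call. Of these genes, 12 in each direction were picked from this same fit by call, size and shared direction. That choice favoured keeping both, so the count is no test of stability. Sizes moved, over 3.85 to 6.88 for Rspo2, 3.19 to 4.68 for Bmp4 and -5.19 to -3.16 for Tfap2b (log2). Of 191 values for 16 genes between genotypes, 125 kept both, 58 lost the call, 7 gained it and 1 turned. The turn was Dlx5 at -0.11 without Wt library 2, in a range of -0.11 to 0.21 with 1 library left out. Fgf8, Fgf9, Bmp4, Dlx5 and Ptch1 were not called in the main fit, and staying uncalled counted as kept. All 58 lost calls fell on the other genes, which were picked from this same fit by call and shared direction. Gstp1 lost 9 of 12 and Hist1h2ap 2 of 12. Of the 7 gained calls, 4 were for Fgf8, whose threshold chose the cells, so its values are a description. Depth and cell number limit E1C5Δ/Δ most, since stricter cell filters left it no library of 10 ridge cells. Removing all mixed-lineage cells gave no value, because nearly all cells carried globin UMIs.

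Replicate numbers did not pair the libraries. Deviations of 9 same-numbered pairs correlated at -0.21 to 0.11, and 1 of 9 libraries correlated best with its own number. With a replicate block the ridge share differed by -11.5 points (exact permutation p = 0.0741), Fgf4 detection over all 9 libraries by -23.3 (exact permutation p = 0.111) and Fgf8 in gated ectoderm by -1.34 (edgeR adjusted p = 0.492). Over all 9 libraries it left 5, 21 and 1 genes for mutants, E1C8Δ/Δ and E1C5Δ/Δ. In the fits of 5 libraries the block could not be fitted.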

Other observations

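Ridge cells varied along the Fgf8 share of their UMIs within single libraries. In the 3 libraries with 30 or more ridge cells (Wt 2, E1C8Δ/Δ 2 and E1C8Δ/Δ 3), Spearman's rho across cells between the Fgf8 share and the share of Bmp4 was 0.73, 0.36 and 0.32, and that of Wnt5a 0.47, 0.33 and 0.44. For Bhlha9 it was -0.60, -0.47 and -0.18. Other ridge genes varied between the libraries, with 0.54, 0.33 and 0.01 for Rspo2, 0.38, 0.13 and 0.04 for Cd44, 0.45, 0.02 and -0.11 for Fgf9, -0.07, 0.27 and 0.30 for Msx2 and 0, 0.26 and 0.19 for Dlx6. The values were steadier for Dlx5 (0.33, 0.37 and 0.19) and Sp8 (0.24, 0.31 and 0.15), and were 0.29, 0.23 and 0.05 for Trp63 and 0.49, 0.06 and 0.30 for Fgf4. Epcam, a gene of the gate, had 0.66, 0.30 and 0.57. Cells are not independent replicates and share depth within a library, so these are descriptions.

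Outside the ectoderm gate, 214 further cells held at least 3 Fgf8 UMIs. Of these, 191 had fewer than 4 of the 7 ectoderm genes, 88 of them also with more Prrx1 UMIs than the sum of those genes, and 23 had enough of the genes but more Prrx1 UMIs than their sum.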
